A study of Mus musculus with 18 samples.

Results

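The genes described here encode the proteins that carry out microRNA (miRNA) silencing, the 4 Argonautes Ago1, Ago2, Ago3 and Ago4 and the 3 TNRC6 proteins Tnrc6a, Tnrc6b and Tnrc6c. They were taken as the rows of a polysome count table whose Ensembl identifiers map to these symbols, which gave 7 of 51467 genes, and all 7 were among the 12851 genes that passed the filter on low counts. Ago4 passed it with only 1 to 16 reads per library, so its values are the least precise. The data are 18 libraries of mouse embryonic stem cells (ESCs), of which 9 came from wild type (WT) cells and 9 from Dgcr8 knockout (KO) cells. DGCR8 is needed to process primary miRNA transcripts, and Dgcr8 KO ESCs lack canonical miRNAs, so the comparison asks how messages are translated with and without miRNAs. Both genotypes were grown in serum (15%), LIF and the 2i inhibitors PD0325901 and CHIR99021, and both received cycloheximide (100 ug/ml, 2 min) before lysis, which holds ribosomes on messages. The methods of the study give V6.5 as the WT line and a previously made ESC line for the Dgcr8 KO, so each genotype is represented by a single line and line and genotype cannot be told apart. For each of 3 gradients per genotype (sucrose, 10 to 50%), messages were collected as monosomes, low polysomes (2 to 4 ribosomes) and high polysomes (4 ribosomes or more), so that there are 6 groups of 3 libraries. Nothing in the labels says that the gradients came from separate cultures, so p-values measure the spread between these samples, which may be technical.

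Argonaute proteins hold a mature miRNA and use its seed, the bases near its 5′ end, to find matching sites in the 3′ UTRs of messages. AGO2 is the member that can cut a fully paired target, while all of the mammalian Argonautes can recruit a TNRC6 protein, also called GW182. TNRC6 proteins in turn bind the poly(A)-binding protein and the PAN2-PAN3 and CCR4-NOT deadenylases, which leads to translational repression, deadenylation and decay of the target.

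In ESCs, many miRNAs share the seed AAGUGC and are called ESCC miRNAs. The 7 of these whose mature forms matched the RefSeq miRNA table (GRCm38.p6) are shown because canonical miRNAs are lacking in Dgcr8 KO ESCs. Their levels were not measured here, and the study describes naive ESCs as negative for its miR-302 reporter. The sites searched for in the Ago and Tnrc6 messages were built from the seed AAGUGCU. Capitals mark the seed, bases 2 to 8. Of the 7, miR-291a, miR-294, miR-295, miR-302b and miR-302d have AAGUGCU as the seed, whereas miR-290a has AAGUGCC and miR-291b has AAGUGCA.
mmu-miR-290a-3p: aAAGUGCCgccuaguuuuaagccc
mmu-miR-291a-3p: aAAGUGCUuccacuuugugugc
mmu-miR-291b-3p: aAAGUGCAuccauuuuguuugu
mmu-miR-294-3p: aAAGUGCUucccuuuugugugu
mmu-miR-295-3p: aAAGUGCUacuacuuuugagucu
mmu-miR-302b-3p: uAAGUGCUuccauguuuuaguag
mmu-miR-302d-3p: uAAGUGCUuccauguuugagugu

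To see which of the silencing genes could themselves carry such sites, the annotated 3′ UTR of each (GENCODE M21, GRCm38) was searched on the transcribed strand for AGCACTTA (8mer), AGCACTT (7mer-m8) and GCACTTA (7mer-A1), which overlap in the core GCACTT. AGCACTTA and AGCACTT pair with the seed AAGUGCU, and GGCACTT (miR-290a) and TGCACTT (miR-291b) were not searched for. The 7 Ago and Tnrc6 messages differ in the motifs that were searched for. Ago3 held 3 sites, among them both of the AGCACTTA matches found in these genes. Ago1 and Tnrc6b held 2 each, Tnrc6c held 1, and Ago2, Ago4 and Tnrc6a held none of these motifs of 7 or 8 bases. Ago2, Ago4 and Tnrc6a held the core GCACTT alone (2, 1 and 1 matches), and whether these are miR-290a or miR-291b sites was not tested. Both Ago1 matches extend to 8mers of other listed miRNAs, GGCACTTA for miR-290a and TGCACTTA for miR-291b. Such sites are common in long 3′ UTRs: 19.4% of 11670 coding genes tested held one, and 45.8% of the 2455 genes whose 3′ UTR was at least as long as the shortest among the Ago and Tnrc6 genes, that of Tnrc6a with 2345 nt. The figures for the 8mer AGCACTTA were 3.36% and 9.21%. The 3′ UTRs of Ago3 (12742 nt) and Tnrc6b (11609 nt) are far longer than 2345 nt, so their counts cannot be compared with these shares. Per kb of 3′ UTR the counts were 0.445 in Ago1, 0.386 in Tnrc6c, 0.235 in Ago3 and 0.172 in Tnrc6b. The count per kb over all genes was not computed. A match describes letters only and does not show that a site is used. The sites are printed with 8 flanking bases on each side, capitals mark the match, and types are given for the seed AAGUGCU.
Ago1 7mer-A1, chr4:126438818-126438824, minus strand: gcactatgGCACTTAgctctgag
Ago1 7mer-A1, chr4:126435304-126435310, minus strand: atgatgttGCACTTAgcagccat
Ago3 7mer-m8, chr4:126341692-126341698, minus strand: gcggtgtgAGCACTTggagccca
Ago3 8mer, chr4:126338311-126338318, minus strand: ttaattgcAGCACTTAagaggcag
Ago3 8mer, chr4:126335515-126335522, minus strand: atgttaagAGCACTTAttgtgctg
Tnrc6b 7mer-m8, chr15:80931328-80931334, plus strand: aacatgctAGCACTTgtgtgata
Tnrc6b 7mer-m8, chr15:80935718-80935724, plus strand: tttatcccAGCACTTgagaggca
Tnrc6c 7mer-m8, chr11:117762134-117762140, plus strand: gccggccgAGCACTTggacgtgg

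A second family, let-7, has few mature members in ESCs and is known for rising on differentiation. Its sites (CTACCTCA, CTACCTC or TACCTCA, which share the core TACCTC) numbered 4 in Ago2, 3 in Ago3, 1 each in Ago1, Ago4, Tnrc6a and Tnrc6b, and 0 in Tnrc6c. Of all coding genes tested, 15.6% held such a site, and 36.5% of those with a 3′ UTR of at least 2345 nt. The 3′ UTRs of Ago2 (11064 nt) and Ago3 (12742 nt) are far longer, so their counts cannot be compared with these shares.

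The genes lie at 5 places in the genome (GRCm38). Ago3 (chr4:126331704-126429556), Ago1 (chr4:126435012-126468583) and Ago4 (chr4:126489541-126533472) lie side by side on the minus strand of chromosome 4, and Ago2 lies alone (chr15:73095844-73184935, minus strand). Tnrc6a (chr7:123123885-123195296), Tnrc6b (chr15:80711313-80941085) and Tnrc6c (chr11:117654289-117763439) are on plus strands. All 7 have long messages. The coding sequence (CDS) was 2574 to 2586 nt in the Argonautes and 5433 to 5703 nt in the TNRC6 genes, against a median of 1365 nt over the coding genes tested. The 3′ UTR ranged from 2345 nt in Tnrc6a and 2588 nt in Tnrc6c to 11064 nt in Ago2, 11609 nt in Tnrc6b and 12742 nt in Ago3, against a median of 998 nt. No read was assigned to the annotated genes that share exonic bases on the same strand with a member, Gm45846 within Tnrc6a and Mir5113 within Tnrc6b. Reads in the shared bases may have been left unassigned, so this does not show that the members lost no reads there.

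The libraries held 1151649 to 4984833 counts, with the fewest in WT monosomes (1151649 to 1578231) and the most in KO high polysomes (3352066 to 4984833). Replicates of a group differed by more than the sampling noise of independent reads, with a chi-square per gene of 1.92 or more for each pair. Each was counted as a sample of its own. Because PCR copies count as reads, these values cannot show that the libraries are separate samples. All 10 ESC markers examined, among them Pou5f1, Nanog and Sox2, averaged at least 3 CPM (counts scaled to the size of the library) in both genotypes, and 0 of 7 primitive endoderm markers did. Of 6 fibroblast markers, 3 reached that level in WT and 2 in KO cells. Their summed level was 293 to 482 CPM in WT and 363 to 900 CPM in KO libraries. Col1a2, Col3a1 and Postn stayed under 3 CPM in both genotypes and Col1a1 in KO cells, so the sum rests on few genes. Of 5 formative epiblast markers, 3 reached 3 CPM in each genotype. Of 6 trophectoderm markers, 3 did so in WT and 4 in KO cells. The part of these markers in the results was not tested. Between 38 and 183 Dgcr8 reads were found in every KO library. For monosomes, low polysomes and high polysomes, the log2 change of Dgcr8 was -0.56, -0.45 and -1.01 (limma, adjusted p = 0.0185, 0.0223 and 0.000276). The high polysome value was -0.59 without KO replicate 3 (0.0342). In 4 of the 6 fits that left out a gradient, those without WT replicates 2 and 3 and KO replicates 1 and 3, the low polysome value did not pass (0.102, 0.0829, 0.107 and 0.0717), and the monosome value did not pass without WT replicate 1 (0.055) or 3 (0.0669). With scaling by total counts the monosome value did not pass (limma, adjusted p = 0.0633). Without the filter on low counts neither the monosome nor the low polysome value passed (limma, adjusted p = 0.0931 and 0.0748). Reads at the 3′ end of Dgcr8 need not lie in the deleted part, so they do not check the labels.

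Levels are given as CPM scaled by TMM factors. QuantSeq reads come from the 3′ ends of polyadenylated messages, so a count does not grow with transcript length and genes can be compared without dividing by length. The level in a fraction is a share of the reads of that fraction, and in such bulk samples fewer cells of a type and less RNA per cell cannot be told apart.

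Ago2 was by far the most abundant of the 7 genes in WT ESCs (mean ± SD, n = 3 throughout). In WT monosomes it had 246 ± 9.32 CPM, in low polysomes 535 ± 60.7 CPM and in high polysomes 497 ± 92.9 CPM. Its lowest library lay above the highest library of every other member in all 6 groups. Ago1 and Tnrc6a came next, and their libraries overlapped in every group. In WT low polysomes, Tnrc6a had 100 ± 12.3 CPM and Ago1 79.8 ± 6.25 CPM. Below them came Tnrc6c with 55.4 ± 8.17 CPM, Tnrc6b with 27.8 ± 4.14 CPM, Ago3 with 20.1 ± 2.7 CPM and Ago4 with 3.3 ± 1.07 CPM, without overlap between neighbours in this group. In WT monosomes Tnrc6c overlapped with Tnrc6b, and Ago3 (7.59 ± 3.11 CPM) with Ago4 (4.64 ± 3.06 CPM). The order of the means was the same in WT and KO cells within each fraction. Of the germline Argonaute relatives, the PIWI genes, 1 of 3 averaged at least 3 CPM, in both genotypes.

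**Figure D1:**
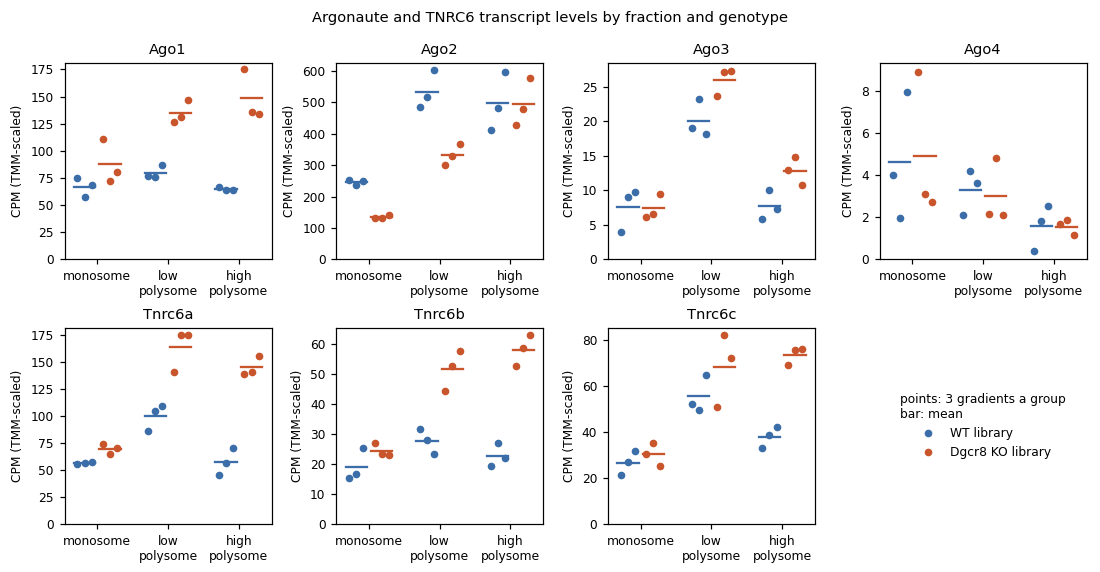
Level of each Argonaute and TNRC6 gene in CPM scaled by TMM factors (vertical axis, a separate linear scale from 0 for each gene) in monosomes, low polysomes and high polysomes of WT (blue) and Dgcr8 KO (orange) cells. Points are the 3 gradients of a group and bars their mean. Ago2 is lower in all KO than in all WT libraries of monosomes and low polysomes and overlaps in high polysomes, whereas Ago1, Tnrc6a, Tnrc6b and Tnrc6c are higher in all KO than in all WT libraries of high polysomes.

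To ask how the silencing genes differed when miRNAs were lost, KO was compared with WT within each fraction. Here a gene is called if its adjusted p was under 0.05 and its level differed by more than 2-fold (absolute log2 change over 1), and genes that passed the adjusted p alone are named as such. In high polysomes 3 of 7 genes were called, all higher in KO cells (Ago1, Tnrc6a and Tnrc6b), where 15.1% of all genes tested were called higher. Among coding genes of like CDS length the background was higher, with 27.6% called higher in the decile of CDS length that holds the Argonautes (median log2 change 0.48) and 31% in that of the TNRC6 genes (0.66). By adjusted p alone 5 of 7 were higher, adding Tnrc6c and Ago3, against 29.1% of all genes. In low polysomes none was called with limma (5 had an unadjusted p under 0.05, and edgeR and DESeq2 also called 0), where 25.0% of all genes were called. By adjusted p alone Ago1, Tnrc6a and Tnrc6b were higher there and Ago2 was lower, against 26.1% of all genes higher and 26.2% lower. In monosomes again none was called (2 had an unadjusted p under 0.05, and edgeR and DESeq2 also called 0), where 18.1% of all genes were called, and by adjusted p alone only Ago2 differed, being lower, as were 19.9% of all genes. The median log2 change of the 7 genes in monosomes, low polysomes and high polysomes was 0.20, 0.37 and 0.95, beside -0.05, 0.00 and -0.08 over all genes tested. With total counts the median of all genes shifted by 0.105 in monosomes and -0.224 in high polysomes, where 1426 genes were then called higher and 3114 lower in place of 1946 and 2303.

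Ago2, the cleaving Argonaute, was the only member that was lower in KO cells by adjusted p in any fraction. In monosomes its levels were 254, 236 and 248 CPM in WT and 130, 130 and 141 CPM in KO gradients. The groups did not overlap, with every KO below every WT library, as for 25.7% of all genes. The log2 change was -0.88 (SE 0.14, limma, adjusted p = 3.39e-06), which left a fraction of 0.542 of the WT level. In low polysomes its levels were 484, 517 and 602 CPM in WT and 300, 328 and 367 CPM in KO gradients. These again did not overlap (log2 change -0.69, SE 0.12, limma, adjusted p = 1.1e-05). There, 28.4% of all genes had every KO below every WT library. High polysomes were different, since Ago2 had 413, 483 and 597 CPM in WT and 427, 478 and 577 CPM in KO gradients. These groups overlapped almost fully. The log2 change there was 0.00, with a 95% confidence interval of -0.25 to 0.24 (limma, adjusted p = 0.978). The test of the difference between these fractions is the change in translation level given below.

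Ago1, a close relative of Ago2 that shares its role in repression, went the other way. Its high polysome levels were 66.7, 63.4 and 64.0 CPM in WT and 175, 136 and 134 CPM in KO gradients. All KO gradients were above all WT gradients (as for 29.9% of all genes), with a log2 change of 1.18 (SE 0.14, limma, adjusted p = 1.96e-09). Scaled by total counts instead of TMM factors, this change was 0.96, under the fold threshold. In low polysomes Ago1 had 76.5, 75.9 and 87.0 CPM in WT and 127, 131 and 147 CPM in KO gradients (log2 change 0.76, SE 0.14, limma, adjusted p = 1.04e-05). In monosomes the groups overlapped, with 57.4 to 75.0 CPM in WT and 72.2 to 111 CPM in KO cells, and the log2 change of 0.36 did not pass (limma, adjusted p = 0.0817). That value passed with the replicate number as a block (0.37, adjusted p = 0.0458), with total counts (0.47, adjusted p = 0.0252) and without KO replicate 2 (0.56, adjusted p = 0.0119).

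Ago3 and Ago4 were scarce. Ago3 had 5.85, 10.1 and 7.32 CPM in WT and 12.9, 14.9 and 10.8 CPM in KO high polysomes. These groups did not overlap, and the log2 change was 0.71 (SE 0.27, limma, adjusted p = 0.0217). Ago3 did not pass with total counts (0.49, adjusted p = 0.116), without WT replicate 1 (0.54, 0.112) or 3 (0.67, 0.0731), or without KO replicate 2 (0.63, 0.0634). In low polysomes, where Ago3 was most abundant, it had 20.1 ± 2.7 CPM in WT and 26.1 ± 2.09 CPM in KO cells, without overlap, but the log2 change of 0.37 did not pass (limma, adjusted p = 0.0853). Ago4 did not pass in any fraction, with log2 changes of 0.01, -0.24 and 0.10 in monosomes, low and high polysomes. Their 95% confidence intervals reached from -1.10 to 1.11, -1.21 to 0.73 and -1.23 to 1.43, so changes of these sizes were not detectable for Ago4 at this depth.

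The 3 TNRC6 genes, the scaffolds that link Argonautes to the deadenylases, were all higher in KO high polysomes. Tnrc6a had 46.0, 56.6 and 70.7 CPM in WT and 139, 141 and 156 CPM in KO gradients (log2 change 1.34, SE 0.14, limma, adjusted p = 9.12e-11). Tnrc6b had 19.5, 27.0 and 22 CPM in WT and 52.9, 58.7 and 63.0 CPM in KO gradients (log2 change 1.35, SE 0.17, limma, adjusted p = 7.38e-09). Tnrc6c had 33.2, 38.9 and 42.0 CPM in WT and 69.1, 75.5 and 76.1 CPM in KO gradients (log2 change 0.95, SE 0.16, limma, adjusted p = 3.65e-06). In each case all KO libraries were above all WT libraries, as they were for 29.9% of all genes, and Tnrc6c was just under the fold threshold.

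In low polysomes, Tnrc6a and Tnrc6b passed the adjusted p and Tnrc6c did not. Tnrc6a had 86.0, 105 and 109 CPM in WT and 141, 175 and 175 CPM in KO gradients (log2 change 0.70, SE 0.13, limma, adjusted p = 1.5e-05). Tnrc6b had 31.7, 28.2 and 23.5 CPM in WT and 44.3, 52.9 and 57.8 CPM in KO gradients (log2 change 0.90, SE 0.16, limma, adjusted p = 8.43e-06). Neither pair of groups overlapped, and 28.6% of all genes had every KO above every WT library there. The levels of Tnrc6c did overlap, with 49.4 to 64.7 CPM in WT and 51.0 to 82.0 CPM in KO cells, and its log2 change of 0.28 did not pass (limma, adjusted p = 0.116). Without KO replicate 1 it was 0.48 and passed (adjusted p = 0.00725), as its paralogs did. In monosomes the log2 changes were 0.29 for Tnrc6a, 0.39 for Tnrc6b and 0.20 for Tnrc6c, and none passed (limma, adjusted p = 0.18, 0.222 and 0.541). Whether Tnrc6c differs from its paralogs in low polysomes was not tested.

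**Figure D2:**
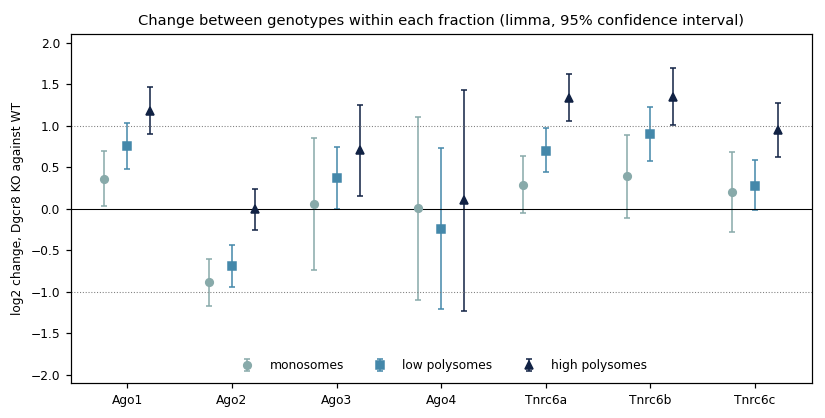
Log2 change of Dgcr8 KO against WT (vertical axis) for each Argonaute and TNRC6 gene in monosomes (circles), low polysomes (squares) and high polysomes (triangles), from limma, with 95% confidence intervals. Dotted lines mark the fold threshold at -1 and 1. Ago2 lies below 0 in monosomes (-0.88) and low polysomes (-0.69) and at 0.00 in high polysomes, while Ago1, Tnrc6a and Tnrc6b exceed 1 in high polysomes.

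Next, the translation level of each gene was taken as its high polysome to monosome ratio, which compares the messages under many ribosomes with those under a single ribosome. In WT cells none of the 7 genes was called (limma; 3 had an unadjusted p under 0.05, and edgeR and DESeq2 called 1 each), where 30.1% of all genes were called. The value nearest to the threshold was that of Ago2, with a log2 ratio of 1.0 (SE 0.13, limma, adjusted p = 3.34e-08), which edgeR and DESeq2 placed at 1.02. Ago4 was beyond the fold threshold at -1.44 in WT but did not pass (limma, adjusted p = 0.06), except without WT replicate 2 (-2.07, 0.0314), without KO replicate 1 (-1.45, 0.0469) and with each gradient as a block (-1.41, 0.0488). In KO cells 4 genes had a called higher share on high polysomes, Ago2 at 1.88, Tnrc6c at 1.28, Tnrc6b at 1.26 and Tnrc6a at 1.06, where 17.5% of all genes were called higher. In the CDS length decile of the Argonautes this share was 26.4% (median 0.45), and in that of the TNRC6 genes 41.5% (median 0.88). Ago4 was called lower in KO cells, at -1.35 (SE 0.55, limma, adjusted p = 0.0287), where 25.5% of all genes were called lower. The Ago4 call did not hold without KO replicate 1 (-1.0, adjusted p = 0.191) or without KO replicate 3 (-1.40, adjusted p = 0.07), nor without the filter on low counts (-1.32, adjusted p = 0.0564). With total counts the median of all genes in KO cells shifted by -0.25, with 1551 genes called higher and 3932 lower in place of 2243 and 3277, and Tnrc6a was under the fold threshold (0.81).

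The change in translation level between genotypes is the interaction of genotype and fraction. Of the 7 genes, 1 was called, Tnrc6a, which rose in KO cells, where 6.29% of all genes were called higher and 15.1% in either direction. By adjusted p alone 5 of 7 were higher (Ago1, Ago2, Tnrc6a, Tnrc6b and Tnrc6c), where 28.2% of all genes passed in either direction. The same 5 had all KO gradients above all WT gradients, as did 20.3% of all genes. The median log2 change was 0.82 for the 7 genes and 0.01 for all genes tested. Values are relative to the TMM scale, since scaling by total counts shifted the median of all genes by -0.329 and gave 282 genes called higher and 2070 lower in place of 808 and 1132. With that scaling Ago1 (0.49, adjusted p = 0.0857), Tnrc6b (0.64, 0.105) and Tnrc6c (0.42, 0.295) no longer passed, while Ago2 did (0.55, 0.0205). Without the filter on low counts Tnrc6b (0.92, 0.0502) and Tnrc6c (0.70, 0.165) did not pass.

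For Tnrc6a, the log2 ratio of high polysomes to monosomes was -0.27, -0.01 and 0.30 in WT and 0.90, 1.12 and 1.13 in KO gradients. Every KO gradient was above every WT gradient, and the change was 1.05 (SE 0.22, limma, adjusted p = 0.000334). This is close to the fold threshold, and the call was lost with total counts (0.72), without the filter on low counts (0.99), without WT replicate 1 (0.91) and without KO replicate 2 (0.98), where the adjusted p stayed at 0.0111 or below.

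For Ago2, the ratio was 0.70, 1.03 and 1.26 in WT and 1.71, 1.88 and 2.03 in KO gradients, without overlap (change 0.88, SE 0.19, limma, adjusted p = 0.00038). The Ago2 ratio was the highest of the 7 genes in both genotypes. For Ago1 it was -0.17, 0.14 and -0.09 in WT and 0.65, 0.91 and 0.73 in KO gradients (change 0.82, SE 0.22, limma, adjusted p = 0.0036). The changes of Ago1 and Ago2 were of like size, but the Ago2 level was lower in KO monosomes and overlapped in high polysomes, whereas the Ago1 level was higher in KO high polysomes.

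For Tnrc6b, the ratio was 0.33, 0.67 and -0.22 in WT and 0.94, 1.31 and 1.42 in KO gradients (change 0.96, SE 0.30, limma, adjusted p = 0.0135). For Tnrc6c it was 0.61, 0.51 and 0.39 in WT and 1.16, 1.08 and 1.55 in KO gradients (change 0.75, SE 0.29, limma, adjusted p = 0.0477). Both had KO gradients above all WT gradients. These p-values depended on single gradients: without WT replicate 3, Tnrc6b had an adjusted p of 0.119 and Tnrc6c of 0.118, and without KO replicate 3 they were 0.0573 and 0.198. Tnrc6c also lost its adjusted p without WT replicate 1 (0.0712) and without WT replicate 2 (0.139).

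Ago3 and Ago4 overlapped between genotypes. The change was 0.65 for Ago3 (95% confidence interval -0.31 to 1.62, limma, adjusted p = 0.332) and 0.09 for Ago4 (-1.64 to 1.82, adjusted p = 0.955). Neither interval leaves out a change as large as that of Tnrc6a.

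**Figure D3:**
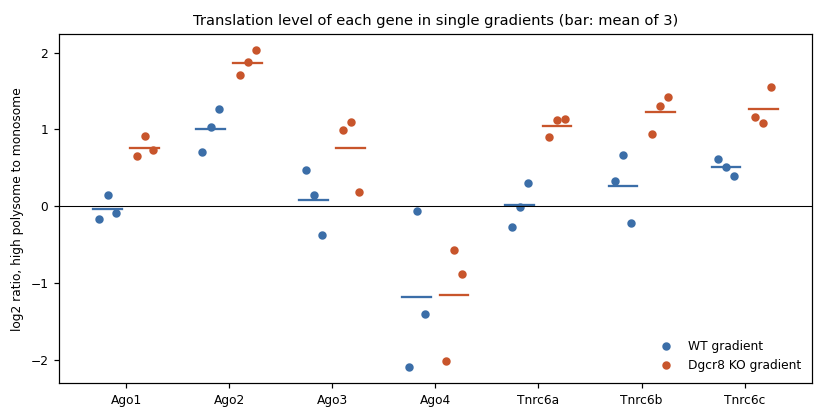
Log2 ratio of high polysome to monosome levels (vertical axis) for each Argonaute and TNRC6 gene in single gradients of WT (blue) and Dgcr8 KO (orange) cells, with bars at the mean of 3. All KO gradients lie above all WT gradients for Ago1, Ago2, Tnrc6a, Tnrc6b and Tnrc6c, and the genotypes overlap for Ago3 and Ago4.

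All 7 messages have a long CDS, and across all coding genes the change in translation level rose with CDS length, so the members were set beside genes of like length. The median change was -0.94 in the decile with the shortest CDS, 0.49 in the ninth decile, which holds the Argonautes (CDS of 2463 to 3411 nt, 1176 genes), and 0.62 in the tenth, which holds the TNRC6 genes (1177 genes). In the ninth decile 14% of genes were called higher and in the tenth 18.4%. Tnrc6a was above 76.6% of the genes in its decile, Tnrc6b above 72.1% and Tnrc6c above 58.4%. Among the Argonautes, Ago2 was above 74.8%, Ago1 above 71.7%, Ago3 above 60.1% and Ago4 above 25.6% of theirs. When the trend of the change on CDS length was subtracted, none of the 7 passed the adjusted p. The remaining changes were 0.45 for Ago2 (limma, adjusted p = 0.0973), 0.39 for Ago1 (0.232), 0.38 for Tnrc6a (0.255), 0.31 for Tnrc6b (0.547) and 0.08 for Tnrc6c (0.888). No member lay above more than 76.6% of its decile.

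**Figure D4:**
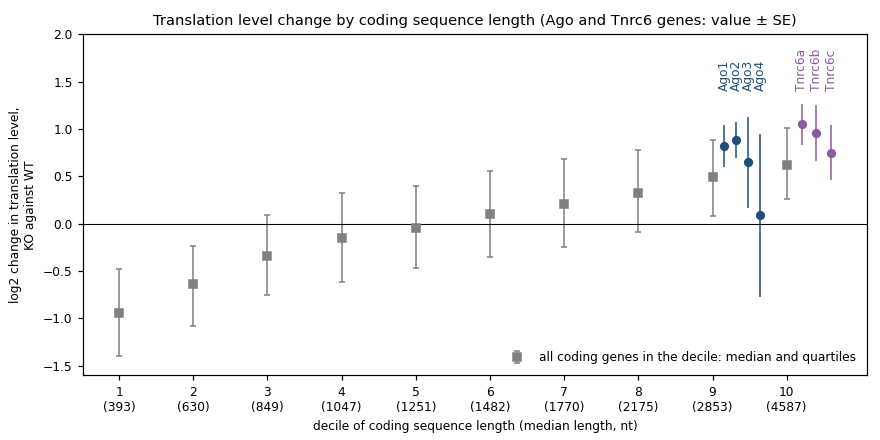
Log2 change in translation level, Dgcr8 KO against WT (vertical axis), by decile of CDS length over all coding genes tested (horizontal axis, with the median length of each decile in nt). Grey squares and bars give the median and quartiles of a decile, and coloured points the Argonaute (blue) and TNRC6 (purple) genes with their SE, set side by side to the right of the decile they belong to. The medians climb from -0.94 to 0.62, and the coloured points lie above the median of their decile except Ago4 at 0.09.

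The position along the gradient was examined in steps. From low to high polysomes, none of the 7 genes was called (limma; 4 had an unadjusted p under 0.05, and edgeR and DESeq2 called 0), where 5.18% of all genes were called. By adjusted p alone the ratio was higher in KO cells for 3 of 7 genes, against 7.52% of all genes. These were Ago2 with a change of 0.68 (SE 0.17, limma, adjusted p = 0.00489), Tnrc6c with 0.66 (SE 0.22, adjusted p = 0.0326) and Tnrc6a with 0.64 (SE 0.19, adjusted p = 0.0164). Of these, only Ago2 kept an adjusted p under 0.05 in each fit that left out a gradient. Tnrc6a lost it without WT replicate 1 (0.0578), WT replicate 2 (0.0703) or KO replicate 3 (0.0543), and Tnrc6c without WT replicate 1 (0.118), WT replicate 3 (0.108), KO replicate 1 (0.109) or KO replicate 3 (0.0719), and also with each gradient as a block (0.0687) and without the filter on low counts (0.098). With total counts neither Tnrc6a (0.0997) nor Tnrc6c (0.14) passed. None passed after the CDS trend was subtracted. For Ago2 the log2 ratio of high to low polysomes was -0.23, -0.10 and -0.01 in WT and 0.51, 0.54 and 0.65 in KO gradients, without overlap. Every KO gradient lay above every WT gradient for 16.1% of all genes. From monosomes to low polysomes, 0 of 7 genes were called by limma, edgeR or DESeq2 and 0 had an unadjusted p under 0.05, where 5.03% of all genes were called. The log2 changes in that step ran from -0.25 in Ago4 to 0.51 in Tnrc6b. With total counts the median of all genes shifted by -0.198 from low to high polysomes (122 genes called higher and 844 lower in place of 294 and 372) and by -0.13 from monosomes to low polysomes (81 and 697 in place of 158 and 489).

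Within a family, shares of reads do not depend on the scaling between libraries. Ago2 made up 75.8% ± 1.63 of the Ago1 to Ago4 reads in WT monosomes and 57.4% ± 5.86 in KO monosomes (SD, n = 3). The share of Ago1 was 20.5% ± 1.69 in WT and 37.4% ± 5.28 in KO monosomes. Ago2 was thus the major Argonaute message in both genotypes, with a smaller part of the family in KO cells. In low polysomes the Ago2 share was 83.8% ± 0.819 in WT and 66.9% ± 0.668 in KO cells, and in high polysomes 86.8% ± 2.02 and 74.9% ± 5.27. The KO minus WT differences were -18.4, -16.9 and -11.9 percentage points in monosomes, low and high polysomes. The libraries did not overlap in any of the 3 fractions, and each difference had p = 0.1 in a two-sided exact permutation test (0.2 adjusted over 6 such comparisons), the smallest p that 3 against 3 allows.

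In the TNRC6 family, Tnrc6a was the largest part in each group, with 55.5% ± 5.13 of the Tnrc6a to Tnrc6c reads in WT and 56% ± 3.42 in KO monosomes. In low polysomes it had 54.5% ± 3.53 and 57.8% ± 1.68, and in high polysomes 48.4% ± 3.51 and 52.5% ± 1.01. WT and KO libraries overlapped in all 3 fractions. The differences were 0.474, 3.35 and 4.02 percentage points (two-sided exact permutation test, p = 1, 0.3 and 0.2, adjusted p = 1, 0.36 and 0.3). The Tnrc6c share, for which no test was planned, was 31.2 to 33.6% in WT and 25.8 to 27.4% in KO libraries of high polysomes. In low polysomes it was 27 to 32.8% in WT and 21.6 to 26.5% in KO libraries, so that KO was below WT without overlap in both polysome fractions, and in monosomes the genotypes overlapped.

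**Figure D5:**
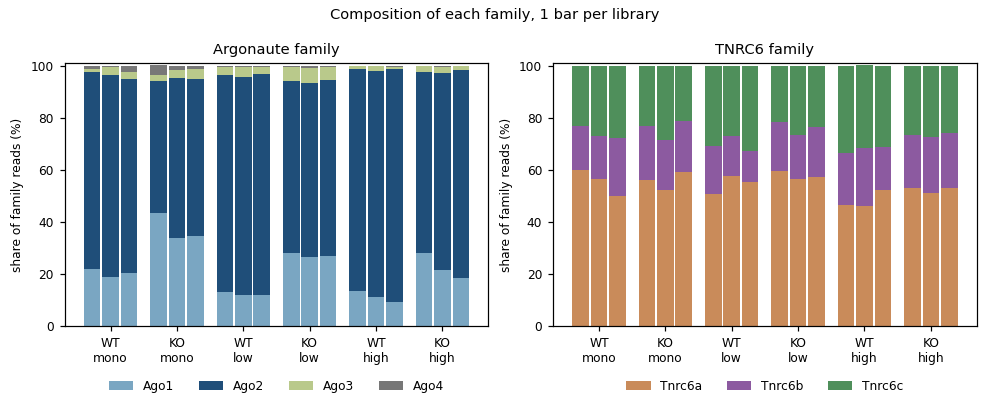
Share of the reads of the Argonaute family (left) and the TNRC6 family (right) that each gene took in each library, in percent (vertical axis), with 3 bars per group ordered by fraction and genotype. Ago2 (dark blue) takes a smaller share in all KO than in all WT libraries of the same fraction, while the Tnrc6a share (brown) overlaps between genotypes.

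Over the 6 group means, the shapes of the profiles were compared by the root mean square difference of centred log2 CPM, as a description. Ago1 and Tnrc6b were the most alike among the 7 genes (0.181), followed by Tnrc6a and Tnrc6b (0.184), and Ago2 and Ago4 the least (1.12). Ago1 was nearer to each of the 3 TNRC6 genes (0.181 to 0.321) than to any other Argonaute (0.557 to 0.79). Among 7451 other genes with a mean count of at least 50, those nearest to Ago1 were Cers5 (0.0631) and Dennd2c (0.0809), and those nearest to Ago2 were Atp2b4 (0.0954) and Baz2a (0.102). Cabin1 (0.149) and Ubn2 (0.152) were nearest to Ago3. The nearest to Ago4, whose profile rests on few reads, were Galnt11 (0.0727) and Rbm5 (0.0872). For the TNRC6 genes they were Chd9 (0.105) and Synj1 (0.108) for Tnrc6a, Synj1 (0.0985) and Brwd3 (0.123) for Tnrc6b, and Myof (0.0502) and Ranbp2 (0.0805) for Tnrc6c.

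The proteins that work with Argonautes and TNRC6 were examined as 3 lists, and all 61 of their genes were tested. For the change in translation level, 6 of 30 genes for RISC loading and Argonaute partners were called higher and 1 lower, 2 of 17 deadenylation genes were higher and 1 lower, and 1 of 14 genes for decapping and translational repression was higher. That is 23.3%, 17.6% and 7.14% of the lists and 18% of all 61 genes, beside 15.1% of all genes called in either direction. By direction, 9 of the 61 genes were called higher and 2 lower. Of all genes tested, 6.29% were called higher and 8.81% lower. The medians were 0.47, 0.23 and 0.05, beside 0.01 over all genes. Ankrd52, a regulatory subunit of the phosphatase that removes phosphates from AGO2, had a change of 3.20 (SE 0.55, limma, adjusted p = 2.17e-05). Its high polysome level was 2.22 ± 0.303 CPM in WT and 22.1 ± 0.0535 CPM in KO cells. The WT level is under the 3 CPM of the filter and rests on few reads, so the changes of Ankrd52 that use it are imprecise. Hsp90ab1, a chaperone that helps load small RNAs into Argonautes, had a change of 1.71 (SE 0.17, adjusted p = 5.91e-10). Its monosome level was 9480 ± 683 CPM in WT and 5210 ± 229 CPM in KO cells. Mov10, a helicase that binds Argonautes, had a change of 1.45 (SE 0.33, adjusted p = 0.000934), which was 0.96 after the CDS trend was subtracted. Lower were Tsnax, a subunit of the endonuclease C3PO that removes cleaved passenger strands, and Cnot8, a catalytic deadenylase of CCR4-NOT, both at -1.04 (SE 0.23, adjusted p = 0.000644 and 0.000549). Both fell under the fold threshold after the CDS trend was subtracted (-0.72 each). Tsnax also did so without WT replicate 2 (-0.79) or KO replicate 3 (-0.98) and with edgeR (-1.0) or DESeq2 (-0.99), and Cnot8 without WT replicate 1 (-0.83) or KO replicate 2 (-0.97).

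Between genotypes within a fraction, 6 of the 61 partner genes were called higher and 1 lower in high polysomes, 4 and 1 in low polysomes, and 1 and 3 in monosomes. These are 11.5%, 8.2% and 6.56% of the 61 genes, below the 33.1%, 25.0% and 18.1% of all genes called in the same comparisons. Mov10 was higher in each fraction, and its monosome level was 24.7 ± 6.1 CPM in WT and 59.6 ± 8.59 CPM in KO cells (log2 change 1.29, SE 0.27, limma, adjusted p = 0.000176). Its change was 1.62 in low polysomes and 2.74 in high polysomes (SE 0.20 for both). Ankrd52 was higher by 1.17 in low polysomes and 3.21 in high polysomes, the former being 0.74 with an adjusted p of 0.0532 without WT replicate 2. Fam120a, an RNA-binding protein that associates with AGO2, was higher by 1.75 in high polysomes, where its level was 183 ± 40.5 CPM in WT and 617 ± 146 CPM in KO cells. The collagen prolyl hydroxylase subunit P4ha1, which is known to hydroxylate AGO2, was higher by 1.06 in low polysomes (0.98 without WT replicate 1). Lower were Tsnax in high polysomes (-1.36), the LIM protein Wtip in monosomes (-1.09) and low polysomes (-1.42), and the poly(A)-binding proteins Pabpc4 (-1.54) and Pabpc1 (-1.09) in monosomes. The monosome changes of Wtip and Pabpc1 fell just under the fold threshold without WT replicate 2 (-0.93 and -1.0) and with total counts (-0.99 and -0.98), and that of Pabpc1 also without KO replicate 1 (-0.97).

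Along the gradient from low to high polysomes, calls among the 61 partner genes numbered 7 higher and 2 lower in KO cells, or 14.8% of the list against 5.18% of all genes. Ankrd52 led with a change of 2.04 (SE 0.49, limma, adjusted p = 0.00297). It was followed by Zswim8, which is part of a ubiquitin ligase that removes Argonaute on certain targets, at 1.42 (SE 0.36, adjusted p = 0.00457), and by Pabpc1 at 1.19 (SE 0.19, adjusted p = 1.79e-05). Tsnax at -1.19 and the HSP90 co-chaperone Ptges3 at -1.04 were lower (adjusted p = 0.000145 and 1.85e-05). Ptges3 fell under the fold threshold without WT replicate 1 (-0.98) or KO replicate 1 (-1.0), and Pabpc1 with total counts (0.99). After the CDS trend was subtracted, Zswim8 (0.97, adjusted p = 0.0853), Ptges3 (-0.65, 0.00782) and Tsnax (-0.84, 0.0107) were no longer called.

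For the translation level itself, 9 of the 61 partner genes were called higher and 8 lower in WT cells (27.9%, against 30.1% of all genes), and 12 higher and 7 lower in KO cells (31.1%, against 43.0% of all genes). In WT the highest log2 ratios among those called were 1.76 for the HSP90 co-chaperone Ahsa1, 1.67 for Ptges3 and 1.60 for the chaperone Hsp90aa1, and the lowest were -2.92 for Pabpc1, -2.38 for Wtip and -2.25 for Pabpc4. The Pabpc1 level in WT cells was 7510 ± 526 CPM in monosomes and 998 ± 148 CPM in high polysomes. In KO cells the highest were 2.18 for P4hb, the other subunit of the collagen prolyl hydroxylase, 2.07 for P4ha1 and 1.97 for Hsp90aa1, and the lowest were -1.75 for Wtip, -1.62 for the CCR4-NOT deadenylase Cnot7 and -1.48 for Pabpc1. Each of these 12 calls held under every alternative run.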

How the data were processed

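Polysome fractions of WT and Dgcr8 KO ESCs were sequenced with QuantSeq 3′ FWD. The deposited values are raw read counts per gene, which the authors made by trimming with Cutadapt 1.14, aligning to mm10 with STAR 2.5.3a (single-locus reads only) and counting by strand with featureCounts 1.5.3 on GENCODE M14 basic annotation without rRNA genes and with ERCC spike-ins. Molecular identifiers are not mentioned, so PCR copies count as reads. Intervals cover the spread between libraries only. The 92 spike-in rows (at most 0.00215% of reads) were left out. Symbols and transcript features came from GENCODE M21 on the same build, and 51274 of 51467 genes matched.

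Genes with at least 3 CPM in at least 3 libraries (12851) were fitted with limma-voom (limma 3.58.1, R 4.3.3) and TMM factors from edgeR 4.0.16, with a mean for each of 6 groups and no block. Two-sided p-values were adjusted by Benjamini-Hochberg across those genes, and calls required an adjusted p below 0.05 together with an absolute log2 change above 1. All p-values called adjusted are from this fit unless an alternative is named. Ratios per gradient used a prior count of 2. Family shares were compared with exact permutation tests (scipy 1.17.1). The fit was tested on simulated data. The filter, limma and the interaction term follow the study's methods, and voom, TMM and the use of the call thresholds here are choices of the re-analysis. Alternatives were DESeq2 size factors, total counts, no filter, edgeR, DESeq2 1.42.0, no fold threshold, leaving out each gradient, a replicate block (each gradient for comparisons of fractions, the replicate number for KO against WT within a fraction) and removal of a lowess trend (span 0.3) on CDS length. The members, the lists and the tests were chosen with earlier results of these data known. From the partner lists, the text names per comparison up to 3 called genes in each direction, taken by size of change. For likeness, the nearest 2 genes are named for each member.

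The 3 fractions of a gradient come from the same lysate and so pair by design. Their deviations from the group means correlated at 0.03 to 0.14 (18 pairs), against -0.14 to 0.08 for other numbers (36 pairs). Between genotypes nothing in the labels ties the replicate numbers to each other. There, same numbers correlated at 0 to 0.1 (9 pairs), against -0.1 to 0.06 for other numbers (18 pairs). Whether a replicate number marks a shared batch was not tested.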

Additional observations from a re-analysis of the deposited data

Results flagged for a closer look

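The high polysome to monosome ratio differed between genotypes by the interaction term (limma, adjusted p under 0.05) for 5 of the 7 genes. Of all genes tested, 28.2% passed in either direction. The log2 differences were 0.82 for Ago1, 0.88 for Ago2, 1.05 for Tnrc6a, 0.96 for Tnrc6b and 0.75 for Tnrc6c, each higher in KO cells and with all 3 KO gradients above all 3 WT gradients. All KO gradients were likewise above all WT gradients for 20.3% of all genes. For the high to low polysome ratio the same test passed for Ago2 (0.68), Tnrc6a (0.64) and Tnrc6c (0.66). There, 7.52% of all genes passed with a higher ratio in KO cells. Both sets of log2 differences share the high polysome libraries. They are listed because the test of the difference between genotypes passed, and none of them passed after the trend on CDS length was subtracted. With 3 samples in each group, a single far library was not tested for.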

How the results depend on the processing

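For single Ago and Tnrc6 genes, 626 of the alternative values kept their direction and their side of the call, 17 gained a call, 10 lost one and 38 changed sign. None of those that changed sign had passed the adjusted p. Total counts gave -0.24 for the Ago4 change in translation level, -0.05 for Tnrc6c from monosomes to low polysomes, -0.13 for Ago4 in high polysomes and 0.04 for the Ago1 level in WT. Without the filter on low counts, Ago2 in high polysomes was 0.01 and the Ago1 translation level in WT 0.06, and DESeq2 size factors gave 0.00 for Ago2 in high polysomes. The Ago4 change in translation level was -0.18 with edgeR, -0.16 with DESeq2 and -0.34 after the CDS trend was subtracted, and Ago4 in high polysomes was -0.10 with edgeR and -0.08 with DESeq2. The CDS trend also gave -0.11 for Tnrc6c from monosomes to low polysomes and 0.00 for Tnrc6b from low to high polysomes. With the replicate number as a block, Ago3 and Ago4 in monosomes were -0.01 and -0.04.

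Leaving out a gradient gave these ranges over 6 fits. For Ago4 the change in translation level was -0.57 to 0.75, the high to low polysome change -0.04 to 0.74, the low polysome to monosome change -0.88 to 0.36, the monosome change -0.44 to 0.40 and the high polysome change -0.53 to 0.56. Ago3 in monosomes ranged from -0.36 to 0.31 and its WT translation level from -0.17 to 0.30. The WT translation level was -0.08 to 0.03 for Ago1 and -0.15 to 0.14 for Tnrc6a. Ago2 in high polysomes was -0.14 to 0.13, the Tnrc6c low polysome to monosome change -0.11 to 0.29 and the Tnrc6a share difference in monosomes -2.28 to 2.79 percentage points.

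The number of members called for the change in translation level, 1, was 0 with total counts, without the filter and after the CDS trend was subtracted, 5 without the fold threshold and 0 to 2 without a gradient. By adjusted p alone the number was 5, and it was 2 with total counts, 3 without the filter, 0 after the CDS trend was subtracted and 3 to 5 without a gradient. For the high to low polysome change it was 3 by adjusted p alone (also 3 without the fold threshold), 1 with total counts, 0 after the CDS trend was subtracted and 1 to 3 without a gradient. In monosomes the number by adjusted p alone was 1 (also 1 without the fold threshold), 2 with total counts and with the replicate block, and 1 to 2 without a gradient. In low polysomes 4 members passed without the fold threshold, and 0 to 1 were called without a gradient. In high polysomes 5 passed without the fold threshold. For the translation level in WT, 1 was called with total counts, without the filter, with edgeR, with DESeq2 and with the replicate block, 2 without the fold threshold and 0 to 2 without a gradient.

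With each gradient as a block, the Ago4 translation level in WT was called (-1.41, adjusted p = 0.0488), and the Tnrc6c high to low polysome value lost its adjusted p (0.0687). With the replicate number as the block, which applies to KO against WT within a fraction, the Ago1 monosome value passed the adjusted p (0.0458). Neither block changed any other call of a member. Of the partner genes and Dgcr8, 437 alternative values kept their call, 30 fell under a threshold and 0 changed sign.

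The data cannot show whether levels differ between whole cells, since unfractionated RNA was not analysed here. Ago3 and Ago4 were limited by depth, with 6 to 104 and 1 to 16 reads per library. A CPM value is relative to its fraction, and values that rest on the scaling moved with total counts. The genotypes are 1 line each.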
